A study of Mus musculus with 6 samples.

Results

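The 10 regulators described here are the coactivators and transcription factors that set how many mitochondria a heart cell makes and which fuel they burn. They are *Ppargc1a*, *Ppargc1b*, *Perm1*, *Ppara*, *Ppard*, *Esrra*, *Esrrb*, *Esrrg*, *Nrf1* and *Tfam*. They were taken from the deposited table by gene symbol, and all 10 were found among its 21776 genes. The study compared hearts of homozygous *Trdn-as* KO mice with WT hearts, with 3 hearts in each group. In the KO mice a polyadenylation signal placed by Cas9 editing in the first exon of *Trdn-as*, a long non-coding RNA antisense to the triadin gene *Trdn*, is meant to end its transcription. The KO mice came from edited embryonic stem cells and were crossed back to C57BL/6, and the controls are labelled WT with nothing further on their litters. The allele is not restricted to a cell type, although the design text names cardiomyocytes. The hearts are called adult in the title of the series, with no age or sex for single animals. The values are read counts divided by a size factor for each library and rounded, called normalised read counts here. They are sums per gene and do not separate isoforms.

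In a cardiomyocyte, PGC-1 coactivators do not bind DNA themselves. They are recruited by nuclear receptors of the PPAR and ERR families and by the factor NRF1, and together these switch on genes of fatty acid oxidation and of the respiratory chain. NRF1 in turn drives *Tfam*, whose protein enters the mitochondrion, packages its DNA and starts its transcription. The heart, which burns mostly fatty acids and is dense with mitochondria, is known for high levels of this network.

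Motifs named for factors of this network were searched on both strands of the RefSeq promoter windows (GRCm38.p6, 250 bases before to 50 after a start). Of the 10 genes 9 had a window, 14 windows in all, and *Ppargc1b* had none. The motifs searched were the NRF1 motif GCGCANGCGC, the ERR element TCAAGGTCA and its core AAGGTCA, the ETS motif CCGGAAGT that GABP binds, the cAMP response element TGACGTCA and its start TGACGT, and the PPAR element AGGTCANAGGTCA. The core lies within the ERR element, and the start within the cAMP response element. The 30 bases around each match follow, 5′ to 3′ on the strand of the gene, with the match in capitals. They were chosen because each holds letters named for a factor of the network or, in *Ppargc1a*, for the cAMP signal known to induce it.
Ppara: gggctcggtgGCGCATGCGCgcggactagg
Perm1: ggaatccggtgTGACCTTagctaatgccaa
Tfam: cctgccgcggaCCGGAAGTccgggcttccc
Ppargc1a: aggtgccctcccACGTCActgagctccagt

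The *Ppara* window (chr15:85735735-85735764, plus strand) holds the NRF1 motif 31 to 22 bases before the start. This motif occurs in 4.6% of all 32851 promoter windows. Among the regulators it matched in *Ppara* alone, and so in no window of *Tfam*. The *Perm1* window (chr4:156215714-156215743, plus strand) holds the ERR core in reverse orientation 202 to 196 bases before the start, a core found in 4.72% of windows. The *Tfam* window (chr10:71238073-71238102, minus strand) holds the ETS motif 47 to 40 bases before the start, found in 3.89% of windows. The *Ppargc1a* window (chr5:51567758-51567787, minus strand) holds the start of a cAMP response element in reverse orientation 50 to 45 bases before the start, found in 7.51% of windows. This RefSeq start of *Ppargc1a* lies 13.8 kb upstream of the gene as the deposited table bounds it. The full ERR element (0.423% of windows), the full cAMP response element (1.79%) and the PPAR element (0.0396%) matched in no window of the regulators. A match in letters is a description of the sequence and not a measured binding site.

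The deposited values summed to between 3.13 and 3.25 M per heart, and the read totals before scaling were not used here. The genotype was visible in the libraries. *Trdn-as*, listed as AC157017.2, had 1, 0 and 1 normalised reads in the KO libraries, against 690, 773 and 688 in WT. *Trdn* had 2489, 2381 and 2551 in KO and 1541, 1541 and 1516 in WT. All 6 cardiomyocyte markers checked (*Myh6*, *Tnnt2*, *Tnni3*, *Actc1*, *Myl2*, *Ryr2*) were abundant, and the skeletal muscle markers in the table were near 0, with sums of 13 to 15 in KO and 7 to 11 in WT hearts, which did not overlap. The summed level of the cardiomyocyte markers was 17964 to 19144 in KO and 18740 to 22840 in WT hearts, highest in WT replicate 1, and all 6 had fitted log2 differences of -0.16 to -0.15. In bulk tissue, fewer cells of a type and less RNA per cell cannot be told apart.

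The question for the regulators was whether loss of *Trdn-as* changed their RNA. None of the 10 passed an adjusted p of 0.05 (two-sided limma fit, with Benjamini-Hochberg adjustment over 13753 genes), where 0.0291% of all tested genes did. The adjusted p of the regulators ran from 0.851 to 1.00. At an unadjusted p under 0.05 there was 1 regulator, *Ppargc1a*, and 5.74% of all tested genes passed that line. *Ppargc1a* was also the 1 regulator whose KO and WT values did not overlap, as was the case for 9.07% of all tested genes, so 1 of 10 is close to the background by both counts. Fitted differences were small, from -0.12 to 0.061 on the log2 scale with SE of 0.06 to 0.11. The fitted value was lower in KO for 8 regulators, against 49.4% of all tested genes, with a median log2 difference of -0.057 against 0.0016 over all genes. The median of the regulators moved with every heart left out, to -0.086, -0.013 and -0.036 for KO replicates 1, 2 and 3 and to -0.022, -0.034 and -0.10 for WT replicates 1, 2 and 3. A scaling to equal totals made it -0.034 and moved the median of all genes to 0.025. Rescaling to equal totals or limma-voom left 6 of 10 lower. Under limma-voom the median of all genes was 0.026, and no share of all genes lower in KO is given for these 2 fits. Over all 10 the 95% intervals reached from -21.6% to 14.4% of the WT level.

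**Figure D1:**
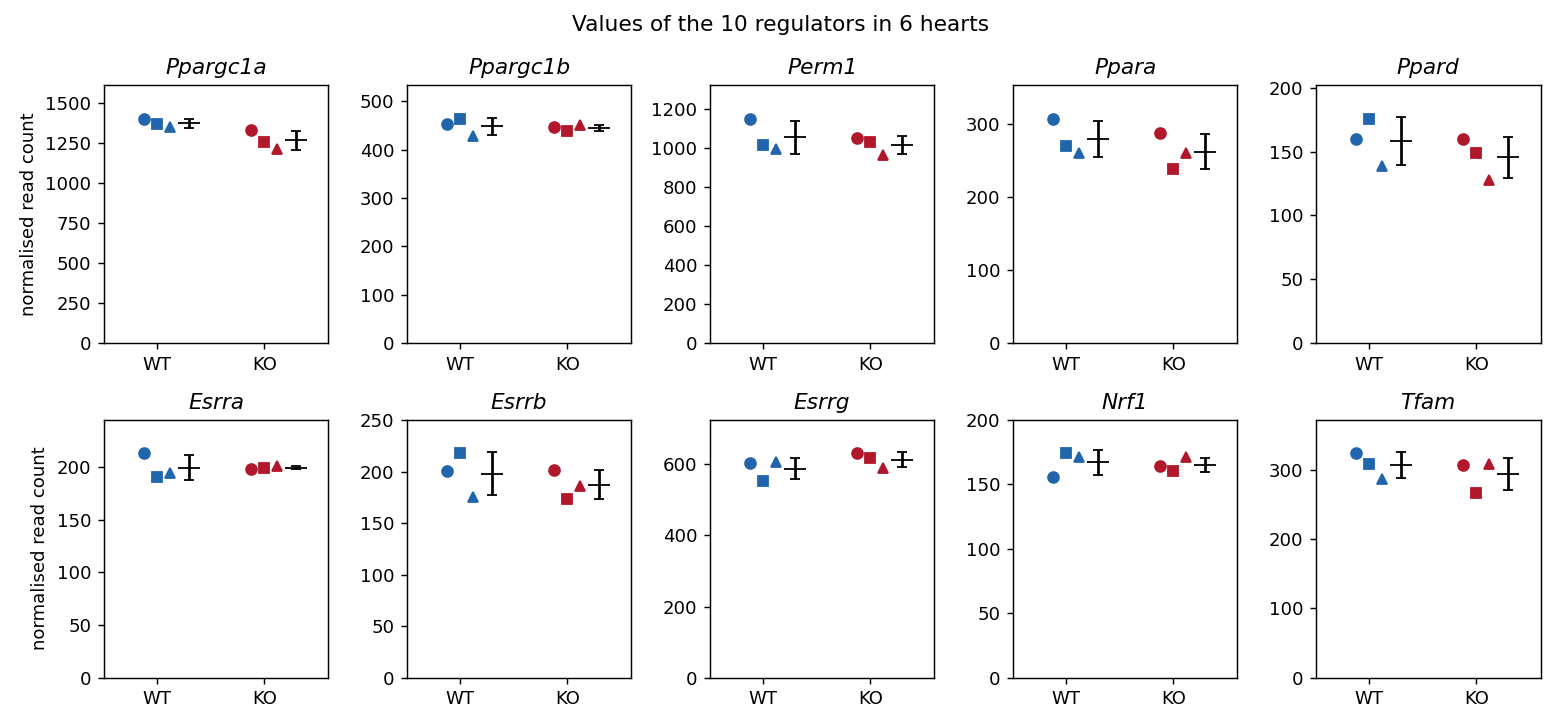
Normalised read counts of the 10 regulators in each heart (y axis from 0), with WT in blue and KO in red, replicate 1 as circle, 2 as square and 3 as triangle, and the mean and SD (n = 3) as bars. The KO and WT values overlap for 9 regulators, and for *Ppargc1a* the highest KO value, 1329, lies just under the lowest WT value, 1349.

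Among the coactivators, *Ppargc1a* encodes PGC-1α, the inducible coactivator that answers to cold, exercise and fasting. It is the protein-coding gene ENSMUSG00000029167 (chr5:51454250-51553922, minus strand, GRCm38, the build of all gene positions given). KO hearts had 1329, 1256 and 1208 normalised reads, a mean of 1264 ± 60.9 (SD, n = 3). WT hearts had 1401, 1365 and 1349, a mean of 1372 ± 26.6 (SD, n = 3). Every KO heart lay below every WT heart, with KO replicate 1 and WT replicate 3 nearest to each other. The fitted level was 7.88% lower in KO, a log2 difference of -0.12 (SE 0.06) with a 95% interval of -0.23 to -0.0023. The unadjusted p was 0.0461 and the adjusted p 0.851 (limma), so the difference failed the correction. It stayed lower in KO in all 15 alternatives, from -0.15 to -0.058, with the smallest difference after a correction for read density, under which the unadjusted p was 0.216. That correction takes off a trend over reads per exonic kb, fitted to each heart over all genes. It thus also takes off a genotype difference that genes of like density share. The cardiomyocyte markers moved the same way, and under that correction their differences were -0.11 to -0.013.

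*Ppargc1b* encodes PGC-1β, the more constant relative of PGC-1α, and carries the microRNA gene *Mir378a* inside its span. For this gene (ENSMUSG00000033871, chr18:61298136-61400431, minus strand) KO hearts had 446, 439 and 451 normalised reads (445 ± 6.03, SD, n = 3) and WT hearts 452, 464 and 429 (448 ± 17.8, SD, n = 3). The KO values all fell inside the WT range. The log2 difference was -0.009 (SE 0.07, adjusted p 0.995, limma), and its 95% interval ran from -9.62 to 9.27%. *Perm1*, a muscle protein named for its induction by PGC-1 and ERR, is ENSMUSG00000078486 (chr4:156215868-156221307, plus strand). KO hearts had 1051, 1030 and 965 normalised reads (1015 ± 44.8, SD, n = 3) and WT hearts 1150, 1017 and 995 (1054 ± 83.9, SD, n = 3). WT replicate 1 stood above the other 5 hearts, which overlapped. The log2 difference was -0.052 (SE 0.06, adjusted p 0.95, limma), and it was 0.012 without WT replicate 1 and 0.025 after the density correction.

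The PPAR receptors bind fatty acids and their derivatives and pair with RXR on DNA. *Ppara*, the main receptor for fatty acid oxidation genes in the heart, is ENSMUSG00000022383 (chr15:85735564-85802819, plus strand). KO hearts had 288, 239 and 261 normalised reads (263 ± 24.5, SD, n = 3) and WT hearts 308, 271 and 261 (280 ± 24.8, SD, n = 3). Its replicate 1 was the highest heart in each group, and the groups overlapped. The log2 difference was -0.092 (SE 0.09, adjusted p 0.930, limma). *Ppard*, the receptor found in most tissues, is ENSMUSG00000002250 (chr17:28232754-28301469, plus strand). KO hearts had 160, 149 and 128 normalised reads (146 ± 16.3, SD, n = 3) and WT hearts 160, 176 and 139 (158 ± 18.6, SD, n = 3). The same value of 160 appeared in both groups. Its fitted log2 difference of -0.12 matched that of *Ppargc1a* in size, but its SE was 0.11 in place of 0.06 and its unadjusted p 0.298 (adjusted p 0.925, limma). The lower count behind *Ppard*, a mean of 152 against 1318, gives a counting error of about 8.11% against 2.75%, if 1 normalised read is taken as about 1 read.

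The ERR receptors are among those that recruit PGC-1 coactivators. *Esrra* (ENSMUSG00000024955, chr19:6910977-6921808, minus strand) is ERRα, the widely expressed form. KO hearts had 198, 199 and 201 normalised reads (199 ± 1.53, SD, n = 3) and WT hearts 213, 191 and 194 (199 ± 11.9, SD, n = 3). The means were equal at this rounding, and the KO hearts lay closer together (CV 0.766%) than the counting error of about 7.08% at this level. The log2 difference was 0.0016 (SE 0.09, adjusted p 1.00, limma), with a 95% interval of -11.5 to 13.3%. On the opposite strand its exons overlap those of *Trmt112*, and the counting used strand. A microRNA gene on its own strand, *Mir6990*, overlaps its exons as well, and reads shared by both were not counted.

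*Esrrb* (ENSMUSG00000021255, chr12:86361117-86521628, plus strand) is ERRβ, best known from pluripotent cells and the inner ear. KO hearts had 202, 174 and 186 normalised reads (187 ± 14, SD, n = 3) and WT hearts 201, 218 and 176 (198 ± 21.1, SD, n = 3), with a log2 difference of -0.079 (SE 0.10, adjusted p 0.95, limma). The WT range enclosed the KO hearts except KO replicate 2, which lay just under it. *Esrrg* (ENSMUSG00000026610, chr1:187609029-188214885, plus strand) is ERRγ, the form of tissues with high energy use. KO hearts had 631, 618 and 591 normalised reads (613 ± 20.4, SD, n = 3) and WT hearts 604, 553 and 608 (588 ± 30.7, SD, n = 3). Of the 10 it had the highest fitted difference, a log2 difference of 0.061 (SE 0.06) with an unadjusted p of 0.352 and an adjusted p of 0.944 (limma). KO replicates 1 and 2 lay above all WT hearts and KO replicate 3 did not, and the 95% interval ran from -4.9 to 14.4%.

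Downstream of the coactivators, *Nrf1* (ENSMUSG00000058440, chr6:30047988-30153458, plus strand) encodes nuclear respiratory factor 1, which binds the promoters of many respiratory chain genes. KO hearts had 164, 160 and 171 normalised reads (165 ± 5.57, SD, n = 3) and WT hearts 156, 174 and 171 (167 ± 9.64, SD, n = 3). WT replicate 1 was the lowest heart of all and WT replicate 2 the highest, with the KO hearts between. The log2 difference was -0.016 (SE 0.09, adjusted p 0.995, limma). *Tfam* (ENSMUSG00000003923, chr10:71225464-71238280, minus strand) had 307, 267 and 308 normalised reads in KO (294 ± 23.4, SD, n = 3), whereas WT hearts had 324, 309 and 287 (307 ± 18.6, SD, n = 3). KO replicate 2 lay below the WT range, and the other KO hearts stood inside it. The log2 difference was -0.062 (SE 0.08, adjusted p 0.955, limma), and without KO replicate 2 it was 0.0057.

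**Figure D2:**
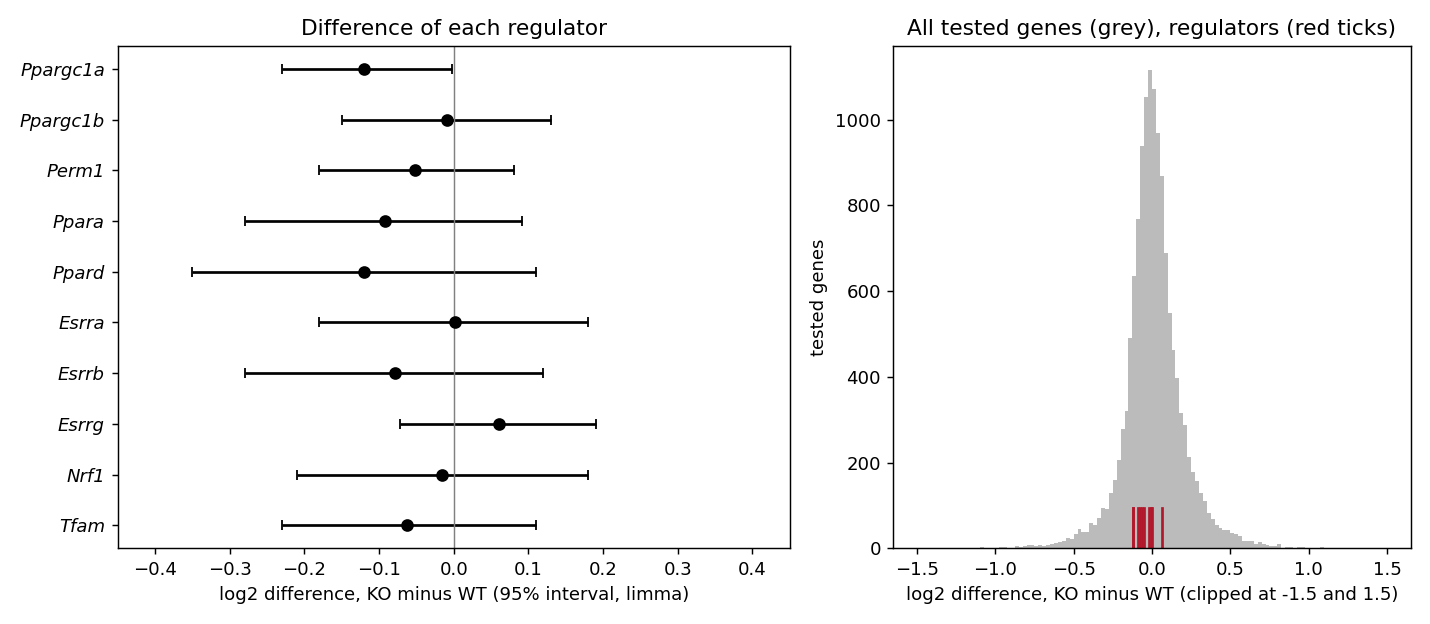
Left, fitted log2 differences of the 10 regulators, KO minus WT, with 95% intervals from limma, where 9 intervals include 0 and that of *Ppargc1a* ends at -0.0023. Right, the differences of all 13753 tested genes in grey, with the regulators as red ticks between -0.12 and 0.061.

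Hearts of 1 group varied around their mean by a CV of 0.766 to 11.7% over the 20 combinations of regulator and group, with a median of 5.88%. In 8 of the 20 the CV was under the approximate counting error at that level. The lowest of the 6 values came from a KO heart for 6 regulators, 3 times from KO replicate 2 and 3 times from KO replicate 3. The highest value came from a WT heart for 9 regulators, 5 times from WT replicate 1 and 4 times from WT replicate 2. WT replicate 1 was also the heart with the largest deposited total and the highest sum of cardiomyocyte markers, and the part of this in the values of the regulators was not tested.

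To compare levels between genes, values were divided by the exonic length of each gene in GENCODE M21. This length counts every base in an exon of any annotated transcript, from 3.84 kb for *Ppara* to 10.3 kb for *Nrf1*. Transcripts little used in the heart can thus lower the level of a gene, and the order depends on this choice. *Perm1* was the most abundant regulator, with 265 ± 16.3 normalised reads per exonic kb (SD over all 6 hearts). *Ppargc1a* followed with 200 ± 11, *Ppargc1b* with 112 ± 3.01 and *Esrrg* with 96.8 ± 4.35. By this measure the coactivators led the order, and *Esrrg* was the most abundant receptor. *Ppara* had 70.7 ± 6.26 and *Tfam* 67.7 ± 4.54 reads per kb, and this is the 1 pair of neighbours whose values overlapped. Below them came *Esrra* with 45.4 ± 1.73, *Esrrb* with 31.9 ± 2.83, *Ppard* with 20.2 ± 2.27 and *Nrf1* with 16.1 ± 0.693. For each of the other neighbours the lowest heart of the upper gene lay above the highest heart of the lower gene. The ends of the order were 16.4-fold apart. By this density *Perm1* stood at percentile 98.7 of the tested genes and *Ppargc1a* at 97.4, whereas *Nrf1* stood at 34.4. M21 gives 5 of the 10 genes the same bounds as the table, and for *Ppargc1a* its length also counts exons beyond the bounds of the table, which lowers the level per kb.

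**Figure D3:**
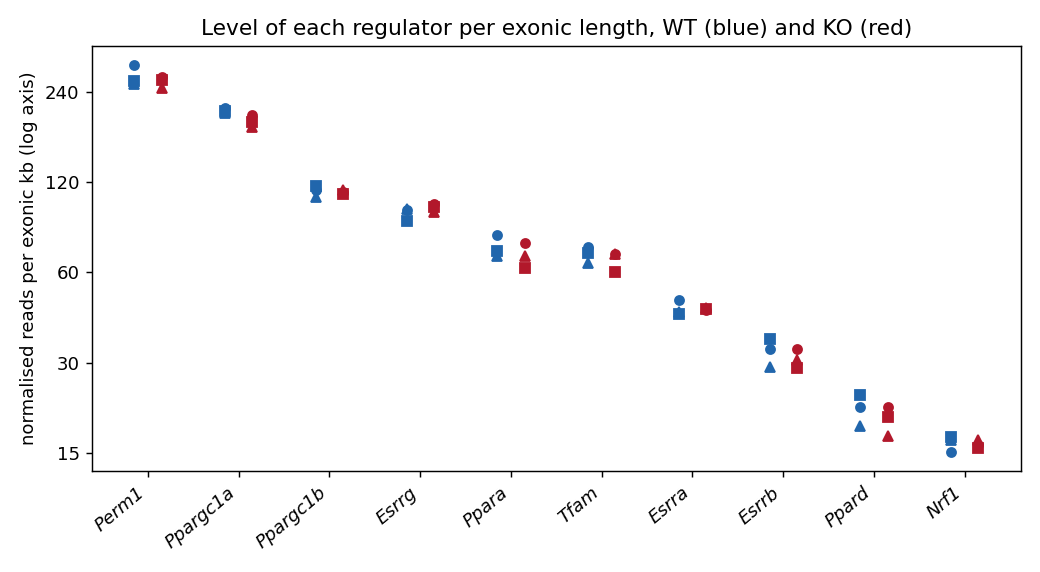
Level of each regulator in normalised reads per exonic kb (log axis), with WT hearts in blue and KO hearts in red and the replicates by shape. The order from *Perm1* (mean 265) to *Nrf1* (mean 16.1) spans 16.4-fold, and KO and WT hearts lie side by side within each gene.

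Within families the balance between members was also compared per exonic kb, as a quantity that scaling of a library cannot move. The size of each share rests on the same exonic lengths. *Esrrg* made up 56.4, 57.3 and 55.4% of ERR RNA in KO, against 54.3, 52.8 and 57.2% in WT hearts. The mean shares of 56.4 ± 0.948% for KO and 54.8 ± 2.22% for WT (SD, n = 3) came from overlapping values. *Esrra* held 25.9 ± 0.825% against 26.2 ± 0.747% and *Esrrb* 17.7 ± 1.01% against 19.0 ± 2.22% (SD, n = 3). *Ppargc1a* held 63.2 ± 1.25% of the RNA of *Ppargc1a* and *Ppargc1b* in KO and 64.9 ± 0.8% in WT (SD, n = 3), with 64.3, 63.4 and 61.9% against 65.2, 64.0 and 65.6%. KO replicate 1 lay above WT replicate 2, so these groups overlapped too. *Ppara* held 77.9 ± 2.06% of the RNA of *Ppara* and *Ppard* in KO and 77.6 ± 2.16% in WT (SD, n = 3). The smallest p of the 5 shares was 0.200 (exact two-sided permutation test, 0.667 after Benjamini-Hochberg adjustment over the 5), and with 3 against 3 hearts this test cannot go below 0.1. With 1 heart left out, the KO minus WT difference ran from 0.626 to 2.81 points for *Esrrg* (1.61 over all hearts), from -2.3 to -0.106 for *Esrrb* (-1.31) and from -2.32 to -1.08 for *Ppargc1a* (-1.75). It took both signs for *Esrra* (-0.665 to 0.147) and *Ppara* (-0.918 to 1.35).

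The other genes of the network were described by 5 lists. Of the 26 partners and corepressors, which include the RXR and thyroid hormone receptors, GABP subunits, coactivators and corepressors, all were tested, 14 were higher and 12 lower in KO, and 0 had an unadjusted p under 0.05 (limma). The median log2 difference was 0.042, and it was 0.023 without WT replicate 1 and 0.011, with 13 higher and 13 lower, without WT replicate 3. The most abundant were the corepressor *Ncor1*, with 1952, 1861 and 1865 in KO and 1960, 1962 and 1929 in WT, and *Lpin1*, a phosphatase and coactivator of PGC-1α, with 1300, 1462 and 1332 against 1451, 1383 and 1299. Groups did not overlap for 1 of the 26 (9.07% of all tested genes), the coactivator *Ncoa1*, named after its values were seen, with a log2 difference of -0.094 (SE 0.06, adjusted p 0.893, limma).

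Of the 19 upstream kinases and sensors, such as AMPK subunits, calcineurin and sirtuins, 18 were tested, of which 4 were higher and 14 lower, with a median of -0.024 and 0 at an unadjusted p under 0.05 (limma). Rescaling to equal totals, which moved the median of all genes to 0.025, made it 9 and 9. So did leaving out WT replicate 1, with a median of -0.0054. *Prkaa2*, the AMPK catalytic subunit of muscle, had 1480, 1478 and 1492 in KO and 1529, 1459 and 1598 in WT. *Camk2d*, the main calcium and calmodulin dependent kinase of the heart, had 1093, 1073 and 1073 against 1207, 1118 and 1116, with no overlap but an adjusted p of 0.892 (limma). Of the others, *Prkag3* and *Stk11* did not overlap either (3 of 18 in all, against 9.07% of all tested genes), in opposite directions, both named after their values were seen, with log2 differences of -0.25 (SE 0.17) and 0.087 (SE 0.07). *Camk4* was below the filter.

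Of the 20 genes of mitochondrial DNA transcription and maintenance, the step that *Tfam* serves, 18 were tested, with 12 higher and 6 lower and a median of 0.044 (0.025 when WT replicate 3 was left out). The 1 gene of 18 with an unadjusted p under 0.05, close to the 5.74% of all tested genes, was *Polg*, the catalytic subunit of the mitochondrial DNA polymerase. It had 353, 344 and 333 in KO against 406, 355 and 395 in WT, without overlap, and a log2 difference of -0.16 (SE 0.07, unadjusted p 0.0369, adjusted p 0.851, limma). Its unadjusted p was above 0.05 under total scaling (0.0637), limma-voom (0.0659) and no mean-variance trend (0.0934). With 1 heart left out it was also above 0.05 for KO replicates 2 (0.0611) and 3 (0.115) and for WT replicates 1 (0.133) and 3 (0.0887). Its accessory subunit *Polg2* had 19, 21 and 21 against 15, 17 and 17, a log2 difference of 0.30 (SE 0.25, unadjusted p 0.245). With *Mgme1* (0.16, SE 0.09) and *Rnaseh1* (0.21, SE 0.20), 4 genes of the list did not overlap, against 9.07% of all tested genes, and the last 3 are named after their values were seen. *Lrpprc*, which stabilises mitochondrial messenger RNA, had 1345, 1231 and 1317 in KO and 1448, 1363 and 1300 in WT. *Mterf1a* and *Mterf1b* were below the filter.

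The PPAR target genes, which read out the activity of these receptors on fatty acid use, were all tested, 13 higher and 13 lower in KO, with a median of -0.0018. None of the 26 passed an adjusted p of 0.05 (limma), and 7 had an unadjusted p under 0.05 (5.74% of all tested genes did), of which 5 were higher and 2 lower. Corrected for read density, 17 were higher and 9 lower, with a median of 0.048. The peroxisomal enzyme *Ehhadh* was the 1 gene without overlap (9.07% of all tested genes), with 135, 138 and 135 in KO and 91, 110 and 122 in WT, a log2 difference of 0.34 (SE 0.12, unadjusted p 0.00799, adjusted p 0.772, limma), with an unadjusted p of 0.0583 without WT replicate 1. *Lpl* is among the most abundant of the list, and *Pdk4*, *Ucp3*, *Angptl4* and *Acadl* are named after their values were seen. *Pdk4*, the kinase that shuts off pyruvate oxidation, had 1682, 1885 and 1998 against 1337, 1574 and 1742 (log2 difference 0.26, SE 0.08, adjusted p 0.744, limma).

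*Ucp3*, a carrier of the inner mitochondrial membrane, had 534, 610 and 577 in KO and 304, 458 and 576 in WT, and *Angptl4*, a secreted inhibitor of lipoprotein lipase, had 64, 122 and 114 against 28, 58 and 100. The log2 differences were 0.41 for *Ucp3* (SE 0.14, adjusted p 0.772, limma) and 0.80 for *Angptl4* (SE 0.30, adjusted p 0.807, limma). For *Ehhadh*, *Pdk4*, *Ucp3* and *Angptl4* alike, WT replicate 3 was the highest WT heart and WT replicate 1 the lowest. Lipoprotein lipase itself, *Lpl*, had 2731, 2776 and 2858 in KO and 3537, 3105 and 2762 in WT (log2 difference -0.16, SE 0.07, adjusted p 0.851, limma), and *Acadl*, an acyl-CoA dehydrogenase of long chains, differed by -0.14 (SE 0.06). The log2 differences of all 6 cardiomyocyte markers were -0.16 to -0.15, and the part of this in *Lpl* and *Acadl* was not tested. The lipoprotein receptor *Vldlr*, also among the most abundant, had 2498, 2386 and 2327 against 2567, 2536 and 2461. Several of these values moved with single WT hearts. Without WT replicate 1 the log2 difference was 0.16 for *Pdk4*, 0.16 for *Ucp3*, 0.33 for *Angptl4*, -0.071 for *Lpl* and -0.079 for *Acadl*. Without WT replicate 3 it was 0.62 for *Ucp3*, 1.23 for *Angptl4* and -0.25 for *Lpl*. Corrected for read density, *Lpl* was at -0.081, *Acadl* at -0.0091 and *Pdk4* at 0.38. Without the mean-variance trend the unadjusted p was 0.0749 for *Pdk4*, 0.117 for *Ucp3*, 0.137 for *Angptl4*, 0.174 for *Lpl* and 0.158 for *Acadl* (limma). For *Ehhadh* it stayed under 0.05 in that fit, at 0.0241 (limma). The count at an unadjusted p under 0.05 fell to 2 when WT replicate 1 was left out and rose to 17 when WT replicate 3 was. The 5.74% of all tested genes comes from the fit with all hearts. No such share is given for these smaller fits, so their counts have no background beside them. With KO replicate 1 left out, 1 gene of the list passed an adjusted p of 0.05 (limma). In that fit 32 of all tested genes passed, against 4 with all hearts.

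The targets of ERR, PGC-1 and NRF1, mostly enzymes of the citric acid cycle, respiratory chain subunits and proteins of mitochondrial shape and import, with others such as *Vegfa*, *Kcnq1* and *Atp2a2*, were lower in KO for 27 of 28 tested genes, against 49.4% of all tested genes. The median log2 difference was -0.11, with a range of -0.16 to 0.18, and the 1 gene that was higher was the import receptor *Tomm20*. None passed an adjusted p of 0.05 (limma), and 5 had an unadjusted p under 0.05, as did 5.74% of all tested genes, namely *Ckmt2*, *Atp2a2*, *Uqcrc1*, *Cs* and *Atp5b*, all lower and all with overlapping groups. Of these and *Tomm20*, *Atp2a2* came from the rule on abundance and the others are named after their values were seen. *Atp2a2*, the calcium pump of the sarcoplasmic reticulum, had 3788, 4047 and 4124 in KO and 5050, 4387 and 3943 in WT (-0.16, SE 0.07, adjusted p 0.851, limma), and its difference was -0.062 without WT replicate 1 and -0.018 corrected for read density. *Ogdh* of the citric acid cycle had 2368, 2316 and 2304 against 2834, 2536 and 2263. *Mfn1*, a fusion protein of the outer membrane named after its values were seen, was the 1 gene without overlap (9.07% of all tested genes), with 1185, 1167 and 1185 against 1366, 1260 and 1219.

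The cardiomyocyte markers, 6 of 6 lower with log2 differences of -0.16 to -0.15 and 3 at an unadjusted p under 0.05, moved with these target genes, and their part in the result was not tested. Without WT replicate 1 the median of the target list was -0.038, with 25 lower and 0 at an unadjusted p under 0.05. Without WT replicate 3 it was -0.18, with 26 lower and 20 at an unadjusted p under 0.05. The shares of all tested genes, 49.4% lower and 5.74% at that p, come from the fit with all hearts. None is given for the fits with 1 heart left out, so these counts have no background beside them. Under total scaling the median was -0.089, with 25 lower and 2 at an unadjusted p under 0.05 (limma). That scaling moved the median of all genes to 0.025, and no shares of all genes are given for it. Without the mean-variance trend the unadjusted p was 0.144 for *Ckmt2*, 0.201 for *Atp2a2*, 0.17 for *Uqcrc1*, 0.185 for *Cs* and 0.217 for *Atp5b* (limma). Corrected for read density, the median was -0.026, with 21 lower and 0 at an unadjusted p under 0.05 (limma). The correction also takes off a genotype difference that genes of like density share. It therefore cannot tell such a difference from a technical one. Both the size of the median and the count thus moved with the WT hearts kept and with the correction.

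**Figure D4:**
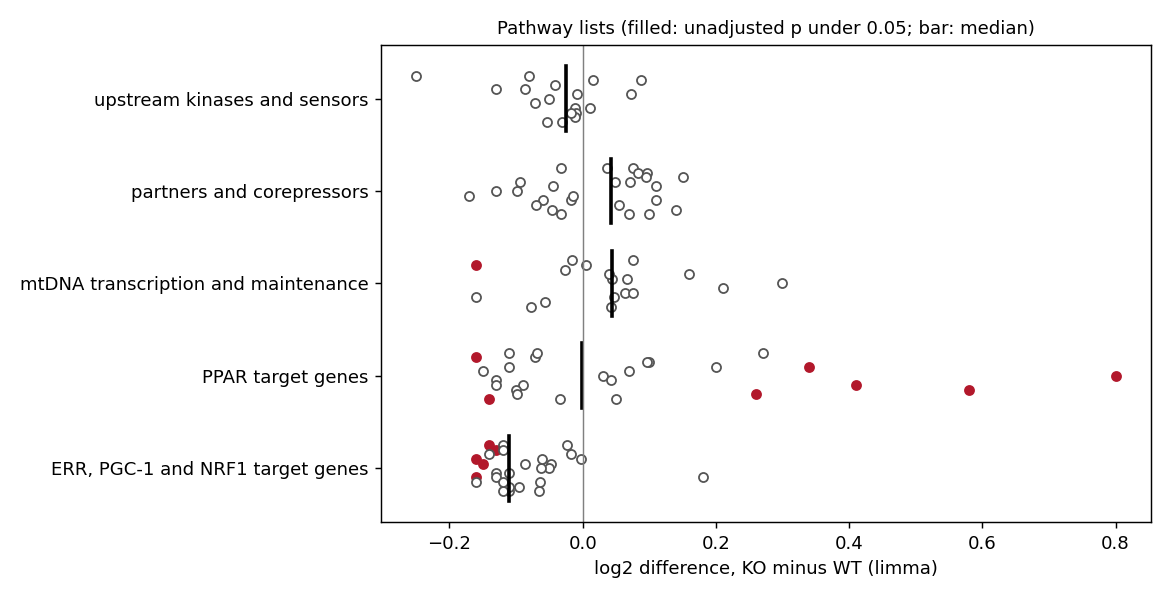
Fitted log2 differences, KO minus WT, of the tested genes in the 5 lists, 1 point per gene, filled where the unadjusted p was under 0.05, with a bar at the median of each list. The target genes of ERR, PGC-1 and NRF1 lie mostly left of 0 around their median of -0.11, whereas the PPAR targets spread from -0.16 to 0.80 around -0.0018.

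The genes whose values over the 6 hearts were most like those of *Ppargc1a* were *Tuba8* (Pearson r 0.995 on log2 values, n = 6 hearts), *Lyrm9* (0.992) and *Ier3ip1* (0.991). For *Esrra* they were *Kctd11* (0.992), *Lipt1* (0.984) and *Lamp2* (0.982). Over only 6 hearts 174 of the tested genes exceeded r = 0.9 with *Ppargc1a* and 84 with *Esrra*. These likenesses are descriptions without a test, and the 6 hearts include both genotypes.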

How the data were processed

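Whole hearts (3 *Trdn-as* KO, 3 WT) were profiled by strand-specific total RNA-seq with single-end reads. Per the labels and methods, the authors used Trimmomatic 0.39, STAR 2.6.1d on GRCm38, Picard 2.21.1 to drop duplicates, featureCounts 1.6.5 on exons, and DESeq2 1.18.1. Multi-mapping, ribosomal and mitochondrial reads were removed, so the mitochondrial genome itself is not measured. The deposited score per gene and library is a read count divided by the library's size factor and rounded. It is not per length, and rounded values were not turned back into counts, so limma took the place of a count test that had been the first choice for raw counts.

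Values were transformed to log2(value + 1). Genes with a mean of at least 10 were tested with limma 3.58.1 in R 4.3.3 (trend, two-sided, Benjamini-Hochberg over 13753 genes, threshold 0.05). The fit had 4 residual and 15.4 prior degrees of freedom. The fit was tested on simulated data. Exonic lengths came from GENCODE M21, which covers 99.8% of the genes. Promoter windows came from RefSeq (GRCm38.p6). Protein sequences were not used here.

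The members and lists were chosen with earlier results of these data known. Named genes were the members, *Trdn-as*, *Trdn*, and from each list the genes with an unadjusted p under 0.05 and no overlap (at most 4) and the 2 of the highest mean, plus the 3 genes most like *Ppargc1a* and *Esrra*. Others are said to be named after their values were seen. The values of 1 gene of the PPAR target list are not reported here. Markers of 9 cell types were fixed as well. Of these, the summed levels in KO and WT hearts were 434 to 620 and 449 to 566 for atrial, 3711 to 4262 and 3727 to 4150 for endothelial, 2297 to 2582 and 2428 to 2595 for fibroblast, 2449 to 2736 and 2472 to 2916 for smooth muscle, 445 to 691 and 542 to 596 for leukocyte, 14 to 67 and 21 to 26 for fat, and 164 to 304 and 151 to 423 for blood markers. None of the tested genes among these 7 lists had an unadjusted p under 0.05 (limma). All 5 blood markers were lower in KO, with log2 differences of -0.38 to -0.13. All 5 endothelial markers were higher, by 0.006 to 0.10. Atrial, fibroblast, smooth muscle and leukocyte markers went both ways. The fat marker sum of 67 came from KO replicate 2.

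Alternatives were a pseudocount of 0.1, dropping the filter down to a total of 1, asking for 10 in every sample, total and median-of-ratios scaling, limma-voom, no mean-variance trend, a replicate block, a loess correction for values per exonic kb (span 0.3), and leaving out each heart. The loess was fitted to each heart over all genes with no term for genotype.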

Additional observations from a re-analysis of the deposited data

How the results depend on the processing

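In all 150 refits of a regulator (15 alternatives for each of 10) the adjusted p stayed above 0.05, from 0.505 to 1.00 (limma). *Ppargc1a*, *Ppara*, *Ppard* and *Esrrb* stayed lower and *Esrrg* stayed higher in KO in every alternative run, but their size moved with single hearts. With 1 heart left out *Ppargc1a* ran from -0.15 to -0.086, *Ppara* from -0.16 (KO replicate 1) to -0.022 (WT replicate 1), *Ppard* from -0.21 (WT replicate 3) to -0.029 (KO replicate 3), *Esrrb* from -0.16 (WT replicate 3) to -0.0084 (WT replicate 2) and *Esrrg* from 0.017 (WT replicate 2) to 0.087 (KO replicate 3). The fitted sign turned for others with differences near 0. Under total scaling, which moved the median of all genes to 0.025, *Ppargc1b* was 0.014 and *Nrf1* 0.007. Under limma-voom they were 0.015 and 0.0086. Under the read density correction *Ppargc1b* was 0.017, *Perm1* 0.025 and *Esrra* -0.0053. Leaving out 1 heart gave ranges of -0.04 to 0.016 for *Ppargc1b*, -0.092 to 0.012 for *Perm1*, -0.028 to 0.05 for *Esrra*, -0.064 to 0.014 for *Nrf1* and -0.11 to 0.0057 for *Tfam*. The number of regulators lower in KO ran from 5 (without KO replicate 2) to 9. The cause of these turns was not tested.

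The count of regulators at an unadjusted p under 0.05, which was 1, was 0 under total scaling, limma-voom, no mean-variance trend and the density correction, and 0 to 1 when 1 heart was left out. It stayed at 1 when KO replicate 1 or WT replicate 3 was dropped and was 0 when any other heart was. Over all genes 4 passed an adjusted p of 0.05, against 2 with at least 10 in every sample, a stricter filter with fewer genes tested, 1 without the trend, and 2 to 32 with 1 heart left out, namely 32 when KO replicate 1 was dropped, 7 for WT replicate 3, and 2 for either KO replicate 2 or WT replicate 1. Among PPAR targets 0 to 1 passed, the 1 when KO replicate 1 was dropped. In the other 4 lists 0 passed in every alternative run.

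The labels give no meaning to the replicate numbers. Once each group's mean was taken off, same-numbered KO and WT hearts had correlations over genes of 0.05, -0.07 and -0.03, so the main fit did not pair them. A correlation over all genes does not test single genes. With the replicate block 4 genes passed over all genes and 0 regulators. In that fit the unadjusted p (limma) was 0.000185 for *Pdk4*, 0.00175 for *Ucp3* and 0.000404 for *Angptl4*. Their adjusted p was 0.182, 0.534 and 0.269. For *Ehhadh*, *Lpl* and *Acadl* the unadjusted p was 0.00895, 0.0287 and 0.0385 (limma).

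The approximate counting error was largest for *Ppard* (8.11%), *Nrf1* (7.76%), *Esrrb* (7.2%) and *Esrra* (7.08%), with 152 to 199 normalised reads on average. The CV between hearts was above it for *Ppard* (11.2% in KO, 11.7% in WT) and *Esrrb* (7.5% and 10.7%). It was below it for *Nrf1* (3.37% and 5.77%) and *Esrra* (0.766% and 5.99%). With 3 hearts per group the intervals of these regulators reach from a fall of 21.6% to a rise of 13.3%.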
